A study of Mus musculus with 15 samples.

Results

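Fam43b, Ccdc85b and Prr7 are 3 of the 38172 gene symbols in a table of expression values from mouse IDH-mutant glioma. They were chosen by their measured expression in these same libraries, which was higher with anti-PD1 than without it, both in animals given no vorinostat and in animals given vorinostat. The choice therefore rests on the contrasts of anti-PD1 with control and of the combination with vorinostat, and the values of these genes in both contrasts are given as a description, without a test. All 3 genes passed the filter on low values, which asked for at least 1 TPM (a transcript level scaled to gene length and to the sum over a library) in at least 3 libraries and left 19390 genes.

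The tumours were made by injecting DF-1 cells, a chicken fibroblast line used to deliver virus, into the brain of nestin-TVA mice, in which the nestin promoter drives a receptor for the delivered virus in progenitor cells; cells carrying mutant IDH were mixed 1:1 with cells carrying PDGFB, the B chain of platelet-derived growth factor. All 15 libraries are labelled IDH-mutant, so every group, control included, carries the mutant IDH and the PDGFB. Treatment began after imaging at day 28 and lasted 9 days, and tumours were taken at day 37. The control group (n = 3) received injections of the vorinostat vehicle, 100 µl once a day. The vorinostat group (n = 4) received 1 mg of this histone deacetylase inhibitor once a day, the anti-PD1 group (n = 4) received 1 mg of antibody against the T cell checkpoint receptor PD-1 in PBS 2 times a week, and the combination group (n = 4) received both. The labels give no control antibody and do not say whether the anti-PD1 animals also received the vehicle, so antibody binding to PD-1 and injection of an antibody in PBS cannot be told apart. If those animals received no vehicle, its absence and the injection schedule cannot be told apart from the antibody in anti-PD1 against control. Both groups of combination against vorinostat received vorinostat once a day. Age, sex and strain of the mice are not given in the sources used here, nor whether each library came from its own animal; p-values measure the spread between these libraries, which may be technical in part.

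RNA came from whole pieces of tumour, although the cell type is labelled as glioma cells. Markers of glioma and progenitor cells summed to 1610 to 11900 TPM over the 15 libraries, with all 8 listed genes tested. Neuron, oligodendrocyte, astrocyte, endothelial and microglial markers were present in every group as well. In such samples a change in the number of cells of a type and a change in RNA per cell cannot be told apart. Depth, as whole reads recovered from the values, was 80.0 to 159.3 M per library. The reads behind the values were 635 to 1278 for Fam43b, 1191 to 3501 for Ccdc85b and 167 to 816 for Prr7.

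The 3 genes encode unrelated proteins. Prr7 is a proline-rich transmembrane adaptor of the postsynaptic density, where it binds the scaffold protein encoded by Dlg4 and the NMDA receptor complex; it can move to the nucleus and slow the degradation of the transcription factor c-Jun by its ubiquitin ligase, and it has also been described in T cells. Ccdc85b, also called delta-interacting protein A, is a small coiled-coil protein that binds delta-catenin family members at cell junctions and has been described as a repressor of transcription driven by beta-catenin and TCF factors. Fam43b is a little-studied gene expressed in brain, with Fam43a as its paralog.

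Their positions are given in GRCm38 (mm10) with GENCODE vM21. Fam43b (ENSMUSG00000078235.3) lies at chr4:138394092-138396528 on the minus strand as a single exon of 2437 bases. Ccdc85b (ENSMUSG00000095098.2) lies at chr19:5453180-5457894 on the minus strand, with exons of its transcripts covering all 4715 bases. Prr7 (ENSMUSG00000034686.8) lies at chr13:55464267-55473154 on the plus strand, with a transcript of 3 exons and 1359 exonic bases in a span of 8888.

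The promoters are shown because the 3 genes are on different chromosomes and were higher in the same groups, so the sequence around each start is what a reader would compare first. Each run is 300 bases from RefSeq (GRCm38.p6), from 250 bases before the gene's RefSeq start to 50 after it, written 5′ to 3′ on the gene's strand; capitals mark GC boxes (GGGCGG, or CCGCCC on the other strand) and CCAAT boxes (CCAAT, or ATTGG). The Fam43b window is chr4:138396409-138396708, minus strand; the Ccdc85b window is chr19:5457514-5457813, minus strand; the Prr7 window is chr13:55464017-55464316, plus strand. The RefSeq start differs from the GENCODE start given above for Fam43b and Ccdc85b, so the Ccdc85b window lies inside the GENCODE gene and part of the Fam43b window does.
Fam43b: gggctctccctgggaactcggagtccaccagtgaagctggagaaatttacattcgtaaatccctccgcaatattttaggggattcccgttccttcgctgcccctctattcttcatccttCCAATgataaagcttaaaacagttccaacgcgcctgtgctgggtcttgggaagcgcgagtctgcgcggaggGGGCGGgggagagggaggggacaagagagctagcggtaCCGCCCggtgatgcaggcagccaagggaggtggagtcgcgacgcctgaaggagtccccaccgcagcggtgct
Ccdc85b: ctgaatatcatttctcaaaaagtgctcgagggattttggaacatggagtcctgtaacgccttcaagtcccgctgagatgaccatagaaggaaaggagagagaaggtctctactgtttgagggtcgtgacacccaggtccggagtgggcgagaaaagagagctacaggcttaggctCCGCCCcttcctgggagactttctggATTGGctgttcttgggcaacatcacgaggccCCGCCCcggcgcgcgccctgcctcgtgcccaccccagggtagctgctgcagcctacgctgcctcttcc
Prr7: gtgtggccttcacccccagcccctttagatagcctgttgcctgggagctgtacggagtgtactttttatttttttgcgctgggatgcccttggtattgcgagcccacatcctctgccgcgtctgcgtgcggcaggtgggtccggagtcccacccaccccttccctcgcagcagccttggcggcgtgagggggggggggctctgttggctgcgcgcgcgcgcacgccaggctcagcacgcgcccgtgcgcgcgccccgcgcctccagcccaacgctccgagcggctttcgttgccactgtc

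All 3 windows were richer in G and C than the median promoter, at 59.0% for Fam43b, 57.7% for Ccdc85b and 67.7% for Prr7 against a median of 52.7% over 27025 promoters of the same length. These values lie at percentiles 68.2, 64.6 and 87.2 of those promoters. The observed over expected ratio of CpG was 0.773, 0.601 and 0.847 in the same order (percentiles 76.6, 63.6 and 82.7), against a median of 0.389. Fam43b and Ccdc85b each held 2 GC boxes and 1 CCAAT box, and Prr7 held neither; 35.9% of all promoters hold a GC box and 37.9% a CCAAT box on either strand. No window held a TATA box (TATAAA, in 14.2% of promoters), an E-box (CACGTG, 7.24%), a cAMP response element (TGACGTCA, 1.88%), an AP-1 site (TGANTCA, 7.93%), an interferon-stimulated response element (3.49%) or a gamma-activated site (TTCNNNGAA, 8.47%), searched on both strands with overlaps allowed. These are matches of letters in 300 bases and no binding was measured.

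Fam43b stood at 24.2, 24.6 and 23.2 TPM in the 3 control libraries and at 23.6, 24.0, 23.6 and 32.0 TPM in the 4 vorinostat libraries. It stood at 41.1, 38.6, 32.6 and 43.7 TPM in the anti-PD1 libraries and at 38.7, 40.1, 38.5 and 41.4 TPM in the combination libraries. Control libraries and 3 of the 4 vorinostat libraries were nearly level, vorinostat replicate 4 stood above them, and all 8 libraries with anti-PD1 lay above all 7 without it. Anti-PD1 replicate 3, the lowest of these 8, exceeded vorinostat replicate 4 by less than 1 TPM.

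Ccdc85b stood at 23.5, 29.8 and 31.1 TPM in control libraries and at 38.4, 32.7, 27.9 and 35.3 TPM with vorinostat. It stood at 52.3, 44.8, 52.5 and 55.0 TPM with anti-PD1 and at 54.5, 73.1, 42.4 and 55.6 TPM with the combination. Control and vorinostat libraries overlapped, anti-PD1 and combination libraries overlapped, and the upper pair of groups lay entirely above the lower pair. The combination group had the widest spread, from the lowest value with anti-PD1 (replicate 3) to the highest of all 15 libraries (replicate 2).

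Prr7 stood at 1.75, 2.49 and 2.65 TPM in control libraries and 4.28, 3.12, 3.83 and 3.44 TPM with vorinostat. It stood at 5.30, 6.15, 6.66 and 6.07 TPM with anti-PD1 and at 6.78, 8.32, 5.77 and 6.13 TPM with the combination. Prr7 formed 3 steps that did not overlap, with control lowest, vorinostat between, and the groups with anti-PD1 highest and overlapping each other. Combination replicate 2 was again the highest library.

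**Figure D1:**
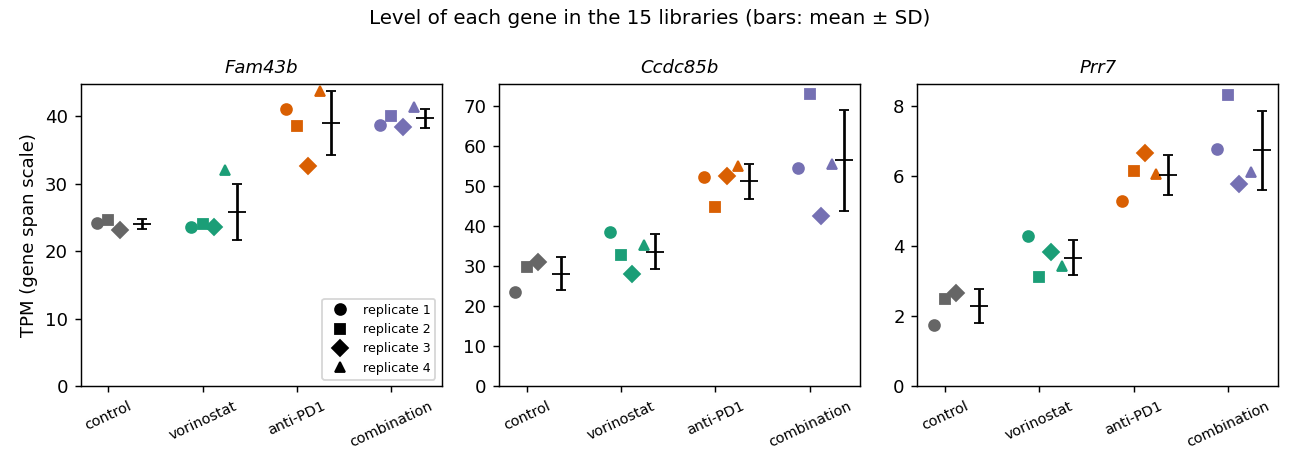
TPM (vertical axis, from 0) of Fam43b, Ccdc85b and Prr7 in each of the 15 libraries by treatment group; marker shapes give the replicate number and bars the group mean ± SD. The 8 libraries with anti-PD1 lie above the 7 without it for each gene, and vorinostat replicate 4 of Fam43b stands apart at 32.0 TPM.

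As group means, Fam43b was 24.0 ± 0.724 TPM (SD, n = 3) in control, 25.8 ± 4.15 (n = 4) with vorinostat, 39.0 ± 4.76 (n = 4) with anti-PD1 and 39.7 ± 1.37 (n = 4) with the combination. Ccdc85b was 28.1 ± 4.08, 33.6 ± 4.43, 51.2 ± 4.39 and 56.4 ± 12.6 TPM in the same order. Prr7 was 2.29 ± 0.481, 3.67 ± 0.503, 6.04 ± 0.563 and 6.75 ± 1.13 TPM. The order of group means was the same for the 3 genes (control, vorinostat, anti-PD1, combination). The neighbours control and vorinostat overlapped for Fam43b and Ccdc85b, and the neighbours anti-PD1 and combination overlapped for all 3.

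The deposited TPM are per gene span, introns included, so levels were compared between genes as reads per kilobase of exon and M reads. On that scale Prr7 was 1.81 ± 0.373 in control (SD, n = 3) and 4.99 ± 0.475 with anti-PD1 (n = 4), Fam43b was 2.90 ± 0.0902 and 4.94 ± 0.756, and Ccdc85b was 3.40 ± 0.480 and 6.45 ± 0.412. On this scale the level of Prr7 was below that of Fam43b in control, and the ranges of these 2 genes' means ± SD overlapped with anti-PD1. The scale takes all reads as exonic, which was not shown. Prr7 has 1359 exonic bases in a span of 8888, so reads in introns would raise its value. On the deposited scale Prr7 stood at 2.29 TPM in control and 6.04 with anti-PD1, against 24.0 and 39.0 for Fam43b.

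The ratio of mean TPM between anti-PD1 and control was 1.62 for Fam43b, 1.82 for Ccdc85b and 2.63 for Prr7. Between combination and vorinostat it was 1.54, 1.68 and 1.84. In these contrasts the lowest library with anti-PD1 exceeded the highest without it by 7.98 and 6.48 TPM for Fam43b, 13.7 and 3.98 TPM for Ccdc85b, and 2.65 and 1.48 TPM for Prr7. Of all genes tested, 8.26% had every anti-PD1 library above every control library and 2.32% had every combination library above every vorinostat library. Both held for 57 genes (0.294%), and 30 genes (0.155%) had all 8 libraries with anti-PD1 above all 7 without it. These 30 include the 3 genes, which were chosen for it. Besides them, and named after their values were seen, they include the T cell genes Cd8a and Gzmb, the MHC class I genes H2-Q2, H2-Q6 and H2-Q7 with their activator Nlrc5, and the autophagy receptor gene Sqstm1. These are a selection, and the 30 also hold Stk25, Syt6, Repin1, Dmpk, Mark4, Scaf1, Adgrb1 and Lzts2, among others. Cd8a did not exceed 0.254 TPM in control and 0.515 TPM with vorinostat, and Nlrc5 did not exceed 0.268 and 0.283 TPM. Both passed the filter only through libraries with anti-PD1, which favours such a separation. Gzmb averaged 0.62 TPM over the 15 libraries. The H2-Q genes are near-identical copies whose reads the counting could split, so their values are uncertain.

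On the log2(TPM + 1) scale, which understates changes of low genes such as Prr7, the change from control to anti-PD1 was 0.67 (SE 0.12) for Fam43b, 0.85 (SE 0.16) for Ccdc85b and 1.10 (SE 0.14) for Prr7. The change from vorinostat to the combination was 0.61 (SE 0.11), 0.71 (SE 0.15) and 0.73 (SE 0.13). The second change less the first was -0.06 for Fam43b, -0.13 for Ccdc85b and -0.38 for Prr7, and these differences were not tested. For Fam43b the order turned without vorinostat replicate 4, where the changes were 0.67 and 0.72, with GC subtraction (0.52 and 0.53) and with neuron markers as a covariate (0.52 and 0.61). For Ccdc85b it turned with neuron markers (0.68 and 0.71) or markers of dividing cells (0.59 and 0.62) as a covariate. The median change over all 19390 genes was -0.14 in the first contrast and 0.02 in the second. In the fit across all genes 5.29% of genes (1.77% higher, 3.52% lower) passed an adjusted p of 0.05 in the first contrast and 0.0103% (2 genes) in the second. The split of the first contrast turned with the scaling, from 344 higher and 682 lower to 502 and 308 with median-of-ratios and 368 and 212 with voom. The number that passed in the first contrast rested on single libraries, being 1026 of 19390 with all libraries, 0 without control replicate 1 (5726 at an unadjusted p under 0.05), 2 without control replicate 2, 11 without control replicate 3 and 4982 without anti-PD1 replicate 3. With a library left out, the first change of the 3 genes ranged from 0.61 to 0.75 for Fam43b, 0.73 to 0.92 for Ccdc85b and 0.98 to 1.18 for Prr7. Such ranges cannot be set against a count of genes passing, and the genes were chosen for a consistent rise here.

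Vorinostat was not part of the choice, though the libraries of its contrasts were. None of the 3 genes passed in any vorinostat contrast by limma with Benjamini-Hochberg adjustment over all genes. Against control the change was 0.09 (SE 0.12, unadjusted p = 0.467, adjusted p = 1) for Fam43b, higher in 1 of 4 libraries than in every control library. For Ccdc85b it was 0.25 (SE 0.16, unadjusted p = 0.155, adjusted p = 1), with 3 of 4 libraries above every control library. For Prr7 it was 0.51 (SE 0.14, unadjusted p = 0.00273, adjusted p = 1), a ratio of mean TPM of 1.60, with 4 of 4 libraries above every control library by at least 0.472 TPM. Across all genes 0.00516% (1 gene, which was lower) passed in this contrast, 1.10% were higher at an unadjusted p under 0.05 and 1.34% had every vorinostat library above every control library.

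On top of anti-PD1, vorinostat was accompanied by a change of 0.03 (SE 0.11, adjusted p = 0.857) for Fam43b, 0.12 (SE 0.15, adjusted p = 0.628) for Ccdc85b and 0.13 (SE 0.13, adjusted p = 0.508) for Prr7 in limma. The direction turned with the scaling for the first 2, to -0.11 and -0.03 with median-of-ratios, and for Prr7 with voom, to -0.01. The number of combination libraries above every anti-PD1 library was 0 of 4 for Fam43b, 2 of 4 for Ccdc85b and 2 of 4 for Prr7. Here 0.0155% of genes (3 genes) passed, and 4.95% had every combination library above every anti-PD1 library. With the replicate number as a block the adjusted p of the 3 genes was 0.812, 0.631 and 0.516, while the number of genes passing went from 3 to 115. Averaged over both backgrounds, the vorinostat change was 0.06 (SE 0.08, adjusted p = 0.890) for Fam43b, 0.18 (SE 0.11, adjusted p = 0.890) for Ccdc85b and 0.32 (SE 0.09, unadjusted p = 0.00474, adjusted p = 0.868) for Prr7, where 0.0103% of genes passed and 3.26% were higher at an unadjusted p under 0.05.

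**Figure D2:**
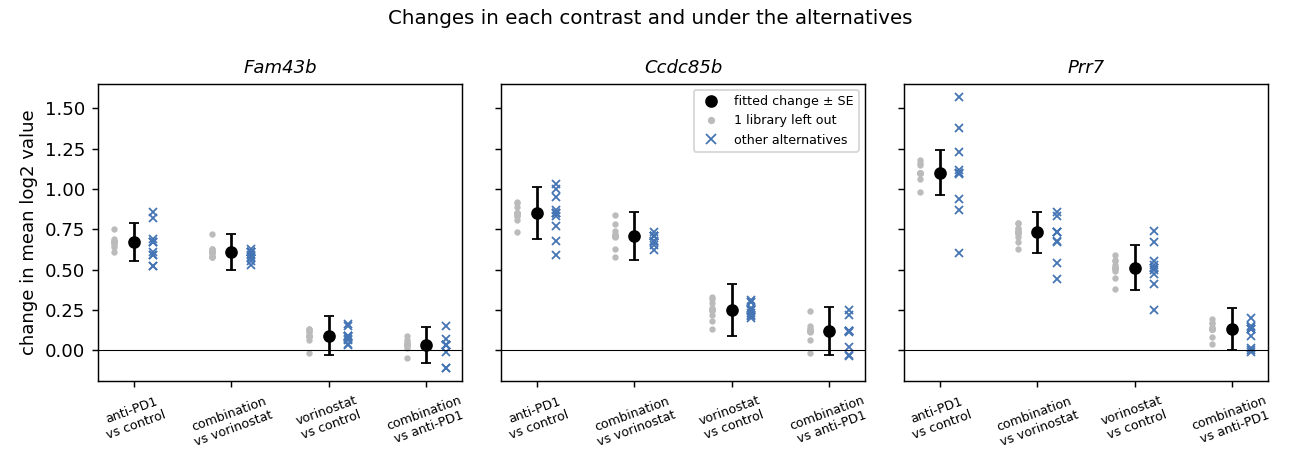
Change in mean log2 value (vertical axis) of each gene in 4 contrasts, as the fitted change ± SE (black), with 1 library left out (grey) and under the other alternatives (blue crosses). All values of the anti-PD1 contrasts lie above 0, while those of combination vs anti-PD1 lie on both sides of 0 for each gene.

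Overlapping genes matter here because the library kit does not mark strand, so reads from both strands of an overlap cannot be told apart. The antisense gene AB041806 overlaps 1331 of the 2437 bases of Fam43b; its own reads came to 7.14% to 16.8% of those of Fam43b in a library. AB041806 stood at 2.88 ± 0.807 TPM in control (SD, n = 3), 3.38 ± 0.948 with vorinostat, 3.84 ± 1.63 with anti-PD1 and 3.89 ± 0.610 with the combination (n = 4 each). Its change with anti-PD1 was 0.28 (SE 0.24, limma adjusted p = 0.410) without vorinostat and 0.17 (SE 0.23, adjusted p = 1) with it. Fosl1, which encodes an AP-1 subunit of the Fos family, overlaps 2767 of the 4715 bases of Ccdc85b on the other strand and had 0.238% to 4.88% as many reads. Fosl1 did not exceed 1.52 TPM in any library and was under the filter, and its groups overlapped in both anti-PD1 contrasts. Its mean was 0.182 TPM in control, 0.194 with vorinostat, 0.462 with anti-PD1 and 0.736 with the combination. In each of these contrasts 3 of 4 libraries with anti-PD1 lay above every library of the group compared.

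The nearest protein-coding genes that were tested gave no calls with anti-PD1 against control, where 5.29% of all genes passed. Beside Prr7, Grk6, a receptor kinase gene 3339 bases away, changed by -0.14 (SE 0.08, adjusted p = 0.226) with anti-PD1 in limma, and Dbn1, the gene of the actin-binding protein drebrin 274 bases from the end of Prr7, by 0.27 (SE 0.12, adjusted p = 0.142). Beside Ccdc85b, Fibp changed by -0.22 (SE 0.13, adjusted p = 0.234) and AI837181 by -0.03 (SE 0.09, adjusted p = 0.856). Beside Fam43b, the ubiquitin ligase gene Mul1 changed by 0.10 (SE 0.12, adjusted p = 0.579), and the cytidine deaminase gene Cda was under the filter at 0.483 ± 0.0429 TPM in control and 0.225 ± 0.136 with anti-PD1.

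Of the 3 paralogs, none passed in limma in either anti-PD1 contrast, where 5.29% and 0.0103% of all genes passed. Fam43a, also a single-exon gene, stood at 24.7, 31.1 and 25.3 TPM in control and at 46.2, 29.8, 27.9 and 57.3 TPM with anti-PD1, so that 2 of 4 anti-PD1 libraries were above every control library. Its change was 0.51 (SE 0.25, adjusted p = 0.173) without vorinostat and 0.55 (SE 0.24, adjusted p = 1) with it. Ccdc85c stood at 5.93, 4.53 and 4.27 TPM in control and at 7.23, 9.10, 6.32 and 6.44 TPM with anti-PD1. Those groups did not overlap (change 0.48, SE 0.20, adjusted p = 0.118), whereas combination and vorinostat libraries did (0.08, SE 0.19, adjusted p = 1). Of all genes tested, 8.26% had every anti-PD1 library above every control library. Ccdc85a changed by 0.13 (SE 0.20, adjusted p = 0.650) and -0.10 (SE 0.18, adjusted p = 1).

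**Figure D3:**
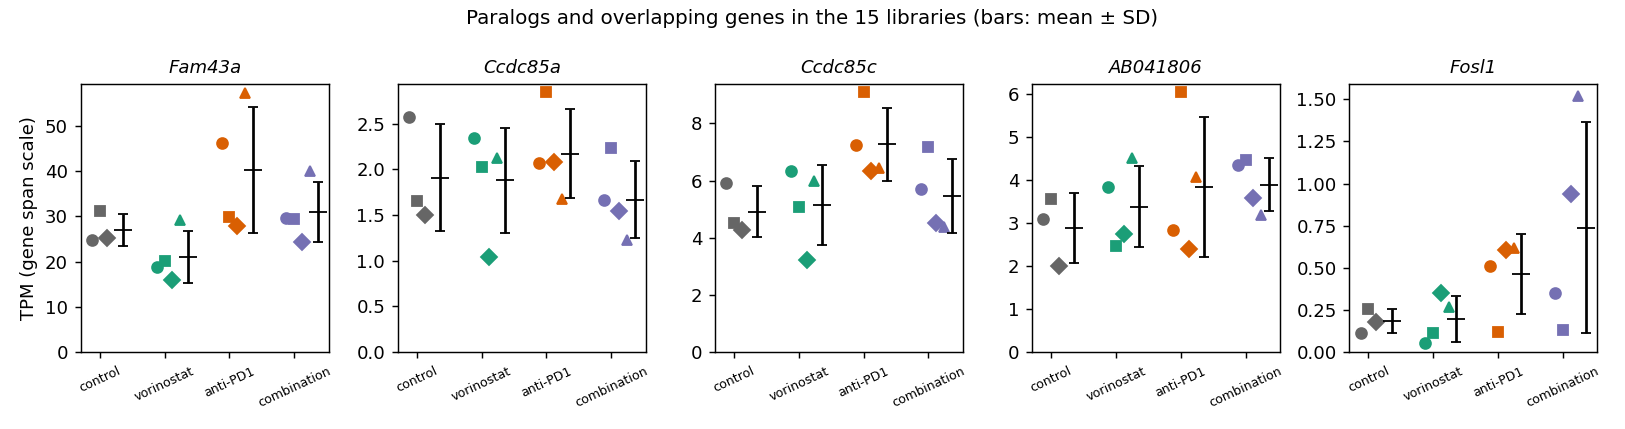
TPM (vertical axes, from 0, scaled per gene) of the paralogs Fam43a, Ccdc85a and Ccdc85c and of the overlapping genes AB041806 and Fosl1 in the 15 libraries by group; marker shapes give the replicate number (circle 1, square 2, diamond 3, triangle 4) and bars the mean ± SD. Of these 5 genes, Ccdc85c has all anti-PD1 libraries above all control libraries, and none has all combination libraries above all vorinostat libraries. Over all genes tested these separations held for 8.26% and 2.32%.

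Genes linked to Prr7 by its described site, its protein type or its described action on c-Jun were read from 3 lists. Of 14 genes of the postsynaptic density and NMDA receptor, all tested, 3 rose and 0 fell with anti-PD1 against control in limma, where 1.77% of all genes rose. Calls in this contrast, here and for the lists below, rested on single control libraries. Without control replicate 1, 0 of all genes passed, with 5726 at an unadjusted p under 0.05. The 3 that rose include the scaffold gene Shank3, up by 1.32 (SE 0.33, adjusted p = 0.0448), and the obligatory NMDA receptor subunit Grin1, up by 0.99 (SE 0.26, adjusted p = 0.0479). The median change of the list was 0.70, against -0.14 over all genes, and 14 of 14 were positive. Between combination and vorinostat 0 of 14 passed, the median was -0.02 and 6 of 14 were positive. Shank3, for one, stood at 8.18 ± 1.60 TPM in control, 10.7 ± 4.47 with vorinostat, 22.6 ± 8.11 with anti-PD1 and 12.6 ± 4.35 with the combination, so the combination group overlapped the vorinostat group.

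Of 9 lymphocyte and leukocyte transmembrane adaptors 6 were tested and 1 rose with anti-PD1 against control, where 1.77% of all genes rose. It was Lat, which links the T cell receptor to its signalling enzymes, up by 0.63 (SE 0.15, adjusted p = 0.0376, limma) from 0.505 ± 0.0505 to 1.34 ± 0.286 TPM. Lat did not exceed 0.535 TPM in control or 1.03 TPM with vorinostat (median 0.817). It therefore needed libraries with anti-PD1 to pass the filter, which favours a rise. Of the 6 tested, 2 were positive, and Tyrobp changed by -0.61 (SE 0.18, limma adjusted p = 0.0597). The list's median was -0.07 (0.04 with median-of-ratios and 0.07 with voom scaling), and 0.12 between combination and vorinostat, where 0 of 6 passed and Lat changed by 0.20 (SE 0.14, adjusted p = 1). Of 14 genes of c-Jun, its partners and its ubiquitin ligase 12 were tested and 1 rose, beside the same 1.77% of all genes. It was Jund, which encodes the AP-1 subunit JunD, up by 0.69 (SE 0.18, adjusted p = 0.0458). Junb changed by 1.34 (SE 0.39, adjusted p = 0.0557). The median was 0.36, and 0.14 between combination and vorinostat, where Jund changed by 0.74 (SE 0.16, adjusted p = 0.347) and 0 of 12 passed. For Ccdc85b, 12 of 16 genes of catenins and Wnt signalling were tested; 0 passed in either contrast (Ctnnb1, the beta-catenin gene, changed by -0.51, SE 0.24, adjusted p = 0.153, with anti-PD1), and the medians were -0.10 (0.03 with median-of-ratios and 0.06 with voom scaling) and 0.01.

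Markers of several other cell types differed between the groups too, in 1 or both anti-PD1 contrasts, and their part in the values of the 3 genes was not tested. The 16 neuron markers, all tested and none at 0 in any library, summed to 1020 to 1630 TPM in control, 656 to 2460 with vorinostat, 1680 to 3510 with anti-PD1 and 1180 to 1990 with the combination. With anti-PD1 3 of 16 rose (Gad1, Gad2 and Grin1, with a list median of 0.95), where 1.77% of all genes rose. Grin1 is also among the genes called on the postsynaptic list. Between combination and vorinostat 0 of 16 passed (median -0.01). The 10 markers of striatal projection neurons summed to 205 to 298 TPM in control, 395 to 852 with vorinostat, 1190 to 2480 with anti-PD1 and 205 to 1130 with the combination; 7 of 10 rose with anti-PD1 (median change 2.29), led by the enkephalin gene Penk (3.02, SE 0.40, limma adjusted p = 0.0104), and the median between combination and vorinostat was -0.04. The summed neuron markers thus did not overlap between groups in the first contrast and overlapped in the second. With the mean of the neuron markers as a covariate the anti-PD1 change was 0.52 (SE 0.13) for Fam43b, 0.68 (SE 0.20) for Ccdc85b and 1.09 (SE 0.17) for Prr7, and the median of the postsynaptic list was 0.10. Grin1 and Camk2a are on both lists, so the covariate was built in part from genes of the postsynaptic list itself.

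Markers of dividing cells, 22 of 22 tested, summed to 1150 to 1510 TPM in control, 752 to 1750 with vorinostat, 259 to 696 with anti-PD1 and 318 to 1330 with the combination. Their medians were -1.46 and -0.58 in the anti-PD1 contrasts, all 22 negative in both, and 0 passed in either. The mean log2(TPM + 1) of the list was 2.76 in combination replicate 2 and 4.85 to 5.33 in the other combination libraries. With vorinostat it was 4.38 to 5.75, so the second median may rest largely on combination replicate 2. With the mean of the dividing cell markers as a covariate the anti-PD1 change was 0.59 (SE 0.14) for Fam43b, 0.59 (SE 0.17) for Ccdc85b and 0.94 (SE 0.16) for Prr7. The 12 T cell markers summed to 2.91 to 4.12 TPM in control, 2.93 to 6.29 with vorinostat, 6.63 to 15.8 with anti-PD1 and 7.06 to 12.1 with the combination, so the groups with anti-PD1 lay above those without it. Cd8a and Cd8b1 were at 0 in some control libraries, Cd8b1 in some vorinostat, Cd3e in some anti-PD1 and Cd2 in some combination libraries. Only 4 of the 12 passed the filter, of which Cd4 rose with anti-PD1 against control (1.64, SE 0.42, adjusted p = 0.0459, limma), where 1.77% of all genes rose. The 9 MHC class I genes, which present peptides to T cells, summed to 449 to 854 TPM in control, 573 to 768 with vorinostat, 726 to 2220 with anti-PD1 and 1070 to 1800 with the combination. Their medians were 0.77 and 0.82, with 9 of 9 positive in both contrasts, 1 gene called in the first (H2-D1, 1.37, SE 0.34, adjusted p = 0.0441) and 0 in the second.

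**Figure D4:**
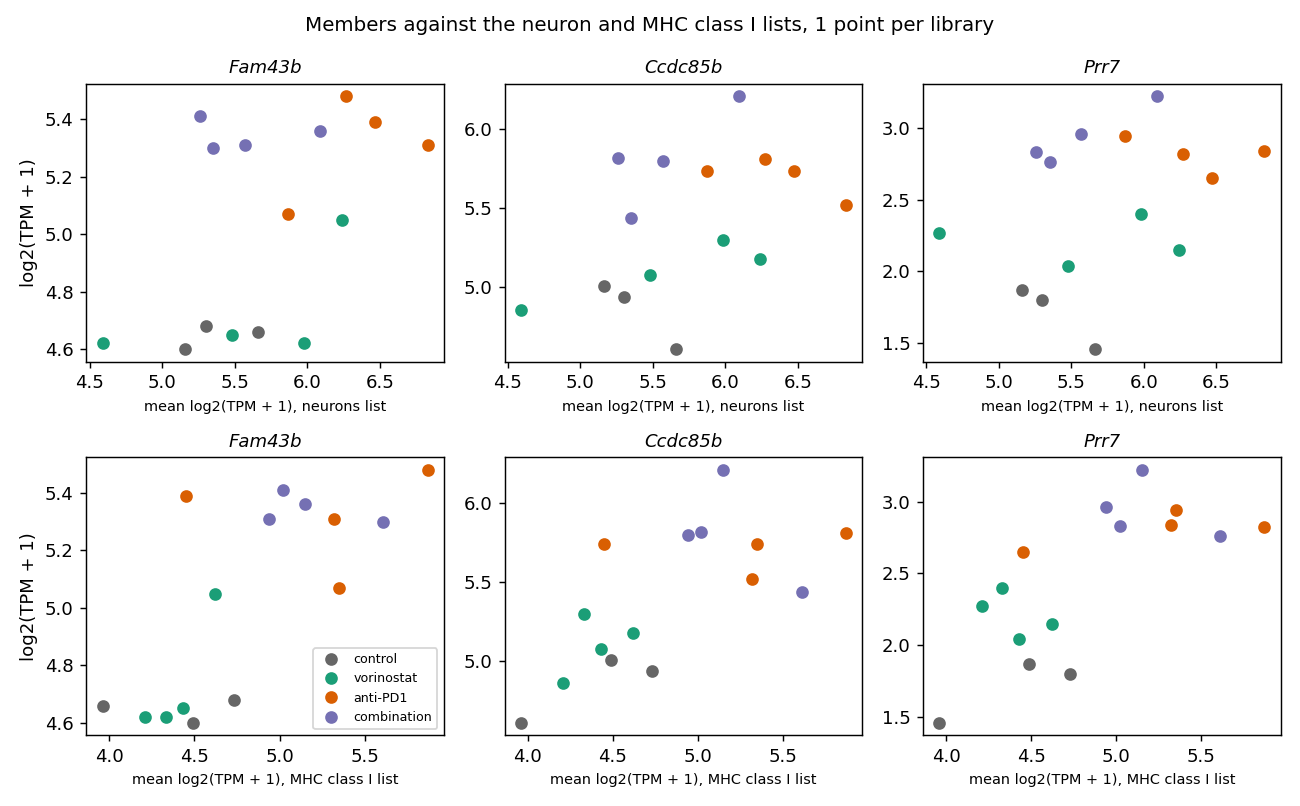
log2(TPM + 1) of each gene (vertical axis) against the mean log2(TPM + 1) of the neuron list (upper row) and the MHC class I list (lower row), 1 point per library, coloured by group. The neuron means of combination libraries overlap those of the control and vorinostat libraries.

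The sequence of the genes themselves was unusual for 2 of the 3. Among 12710 tested protein-coding genes the GC content of the longest transcript was at percentile 99.9 for Prr7 (69.0%), 99.3 for Fam43b (64.3%) and 73.6 for Ccdc85b (54.8%), against a median of 50.2%. Gene spans were short, at percentiles 4.89 for Fam43b, 12.6 for Ccdc85b and 24.8 for Prr7. GC content moved with the groups across the whole table. The change with anti-PD1 had a Spearman correlation of 0.23 with GC content across these genes, which share the libraries and are not independent; the median change rose from -0.22 in genes of 35% to 40% GC (n = 641) to 0.14 at 60% to 65% (n = 591) and 0.23 at 65% to 70% (n = 63). Between combination and vorinostat the correlation was 0.07, with medians of 0.03, 0.08 and 0.19 in the same bins. The median log2 deviation of the 661 genes of at least 60% GC, less that of all genes, was -0.19 to -0.08 in control libraries, -0.13 to 0.04 with vorinostat, 0.05 to 0.24 with anti-PD1 and -0.01 to 0.14 with the combination.

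After subtraction of the median of the gene's own GC bin, a step chosen after seeing the data, the anti-PD1 change was 0.52 for Fam43b, 0.95 for Ccdc85b and 0.87 for Prr7, and the change between combination and vorinostat was 0.53, 0.68 and 0.54. The same step left vorinostat changes against control of 0.04, 0.30 and 0.41, and changes of the combination against anti-PD1 of -0.01, 0.02 and 0.00. Genes of 1 exon, such as Fam43b, had a median change with anti-PD1 of -0.12 (n = 402), against -0.13 for genes of several exons.

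**Figure D5:**
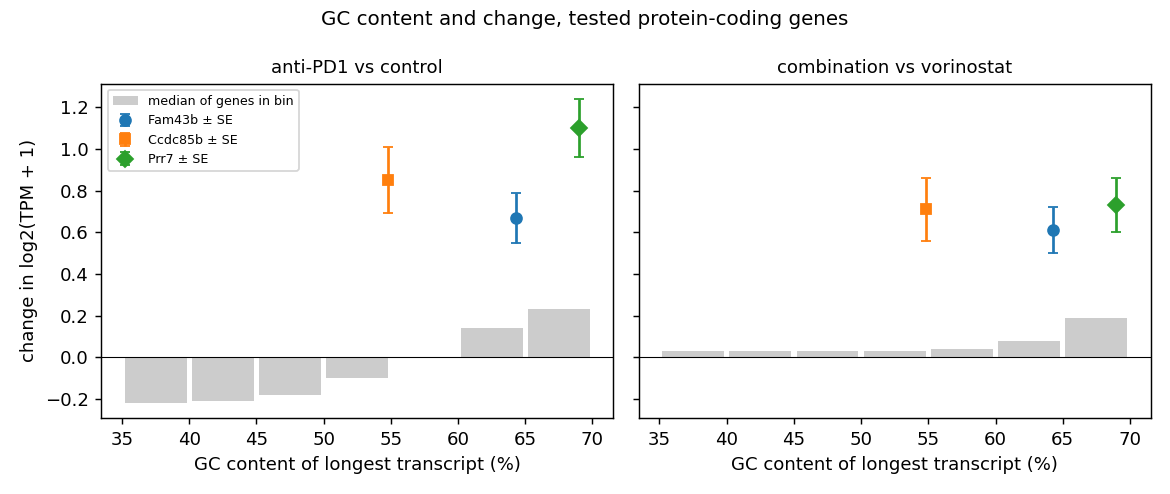
Change in log2(TPM + 1) (vertical axis) against GC content of the longest transcript (horizontal axis, %) for anti-PD1 vs control (left) and combination vs vorinostat (right); grey bars are medians of tested protein-coding genes in bins of 5 points and markers are the 3 genes ± SE. The bars rise with GC content on the left, from -0.22 to 0.23, and each of the 3 genes lies above the bar of its bin in both panels.

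Across the 15 libraries the genes most like each of the 3 were found by Pearson correlation of log2(TPM + 1) among 12709 protein-coding genes; libraries share their group, so genes that differ by group correlate. Prr7 and Ccdc85b were among each other's closest, with r = 0.94, first in the list of Prr7 and second in that of Ccdc85b. The 3 genes were chosen for the same rise in these libraries, so high correlations among them follow in part from the choice. With group means removed, Prr7 ranked 126 in the list of Ccdc85b, and Ccdc85b ranked 48 in that of Prr7. Ccdc85b was closest to Jund (0.95), then Prr7, Yjefn3 (0.91), Fbrsl1 (0.91) and Lzts2 (0.90). Prr7 was closest to Ccdc85b, Fbrsl1 (0.93), Atp5d (0.93), Gm13889 (0.92) and Jund (0.91). All 5 on the list of Ccdc85b had a GC content of 60.8% to 69.0%. Fam43b had other neighbours: the interleukin-6 receptor gene Il6ra (0.93), Mark4 (0.91), Acvrl1 (0.90), Syt6 (0.89) and Rnf223 (0.89), with 49.2% to 60.6% GC; Ccdc85b ranked 19 in its list (0.86) and Prr7 ranked 40 (0.82).

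Jund, the gene on both lists, stood at 115 ± 10.9 TPM in control (SD, n = 3), 139 ± 23.7 with vorinostat, 187 ± 25.8 with anti-PD1 and 235 ± 53.3 with the combination (n = 4 each). Its order of means was that of the 3 genes, which its selection by correlation with Ccdc85b and Prr7 favours. It is a gene of 1 exon with 67.1% GC.

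With group means removed, the deviations of Ccdc85b and Prr7 had r = 0.68 (two-sided permutation p = 0.0288 within groups, adjusted p = 0.432 over 15 relations) and Spearman's rho of 0.69 (permutation p = 0.0211, adjusted p = 0.316) over 15 libraries, and r = 0.47 without control replicate 1 and combination replicate 2, the libraries farthest from the median. Those of Fam43b had r = 0.17 with Ccdc85b (permutation p = 0.500) and -0.28 with Prr7 (permutation p = 0.299). None of the 15 relations passed after adjustment. Among the marker lists the values farthest from 0 were -0.59 for Ccdc85b with dividing cells (rho = -0.56; permutation p = 0.102 and 0.0585, adjusted p = 0.575 and 0.439; r = -0.63 without combination replicate 2 and anti-PD1 replicate 2) and 0.51 for Fam43b with neurons (rho = 0.45; permutation p = 0.196 and 0.165, adjusted p = 0.584 and 0.558; r = 0.22 without vorinostat replicates 3 and 4). Prr7 had r = 0.04 with neurons (permutation p = 0.897).

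The genes closest in these deviations were others than those closest over all libraries. For Fam43b they were Dclre1c (r = 0.96), Dcdc2a (0.96), Hapln4 (0.95), Numb (0.95) and Nptx1 (0.94). In the vorinostat group, where Fam43b replicate 4 stood apart, the maximum and median were 2.28 and 1.48 TPM for Dclre1c and 2.54 and 0.375 for Dcdc2a. They were 58.6 and 28.1 for Hapln4, 3.02 and 2.22 for Numb, and 233 and 89.2 for Nptx1. These correlations may thus rest largely on 1 library, and they were not computed again without it. The closest genes were, for Ccdc85b, 2610301B20Rik (0.89), Zfp180 (0.88), Gm42517 (0.87), Atp6v0d1 (0.85) and Rinl (0.85), and for Prr7 Rex1bd (0.93), Ssbp4 (0.90), Dbn1 (0.85), Lilr4b (0.85) and Fbxl15 (0.84). Dbn1 is the gene that ends 274 bases from Prr7. Lilr4b has a near-identical copy, so its value is uncertain.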

How the data were processed

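Total RNA of 15 tumour samples was sequenced by the authors from unstranded libraries. The authors deposited TPM, in 1 table of 38172 symbols; FastQC, HISAT2, StringTie and DESeq2 with build mm10 are named in the submitters' processing notes, without versions. TPM were found to be per gene span, introns included, and summed to 996108 to 997722. Whole reads were recovered for 98.6% of values above 0 (within 0.01 reads); 36477 symbols (95.6%) matched 1 gene of GENCODE vM21.

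Tests used log2(TPM + 1) of genes reaching 1 TPM in 3 or more libraries, limma 3.58.1 (R 4.3.3) with 1 mean per group over all 15 libraries, an empirical Bayes trend and Benjamini-Hochberg adjustment at 0.05. The steps were tested on simulated data. Alternatives were limma's voom on recovered reads with TMM scaling (18442 genes), other pseudocounts, filters and scalings, marker covariates, GC subtraction, a replicate block and each library left out. Within-group correlations used 100000 permutations.

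The labels do not say what replicate numbers mean. Deviations from group means of same-numbered anti-PD1 and combination libraries had correlations of 0.203, 0.638, 0.426 and 0.29. In each other pair of groups at least 1 same-numbered correlation was under 0.1, while others reached 0.55. Libraries of different numbers were not compared, so these values cannot show whether the numbers mark pairs.

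Named genes were the 3 genes, their paralogs, overlapping and nearest genes, the 5 most correlated genes, and, from each list, genes among the 3 of smallest p; 1 of these is not reported here. The genes, lists and tests were chosen with earlier results of these data known.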

Additional observations from a re-analysis of the deposited data

Results flagged for a closer look

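In vorinostat replicate 4, Fam43b stood at 32.0 TPM while the other vorinostat libraries stood at 23.6 to 24.0 TPM. The gap to the nearest library was 0.943 of the group's range, past Dixon's 95% critical value for 4 samples. Of 42 groups examined in this way it was the one past the limit, and chance alone passes about 1 in 20. Without this library the Fam43b change from control to vorinostat was -0.02 and that from vorinostat to the combination was 0.72.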

How the results depend on the processing

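For changes of the 3 genes in both contrasts that chose them, 144 of 154 alternatives stayed within 1 SD of the value given and 0 reversed. The others moved with anti-PD1 against control to 0.82 (median-of-ratios scaling), 0.86 (voom) and 0.52 (neuron covariate) for Fam43b, to 0.59 (dividing cell covariate) for Ccdc85b, and to 1.38 (pseudocount 0.1), 0.60 (pseudocount 5), 1.57 (voom) and 0.87 (GC subtraction) for Prr7; for combination against vorinostat Prr7 moved to 0.44 (pseudocount 5) and 0.54 (GC subtraction). The mean of Prr7, 4.85 TPM, is under the filter of 5 TPM, which gives it no value.

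In vorinostat contrasts 0 of 228 alternatives brought any of the 3 genes past the threshold (smallest adjusted p = 0.377) and 9 reversed a direction. For combination against anti-PD1, Fam43b became -0.11 with median-of-ratios scaling, -0.11 with voom and -0.01 with GC subtraction, and -0.05 to 0.09 with a library left out; Ccdc85b became -0.03 and -0.04 under the first 2 of these and -0.02 to 0.24; Prr7 became -0.01 with voom. For vorinostat against control Fam43b ranged from -0.02 to 0.13 with a library left out. The cause was not tested.

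The number of genes called, which is another measure than a change, also depended on the processing. For anti-PD1 against control, 1026 became 300 with no filter, 580 with voom, 397 with only the groups compared, 2621 with the replicate block, 18 with the neuron and 4 with the dividing cell covariate, and 0 to 4982 with a library left out; 33.5% of calls were higher, against 62.0% with median-of-ratios scaling and 63.4% with voom, and those scalings moved the median change of all genes from -0.14 to -0.01 and 0.00. For combination against vorinostat, 2 became 0 with pseudocount 0.1, a mean filter, only the groups compared or the replicate block (403 to 1257 at an unadjusted p under 0.05), 1 with voom, 5 and 4 with the neuron and dividing cell covariates, and 0 to 9 with a library left out. For vorinostat against control, 1 became 4 with no filter, 0 with the mean filter (183 unadjusted), 2 with only the groups compared, and 0 to 2. For combination against anti-PD1, 3 became 0 with pseudocount 0.1, only the groups compared and the neuron covariate (1997 to 4528 unadjusted), 14 with no filter, 11 with the mean filter, 1 with voom, 115 with the replicate block, 22 with the dividing cell covariate, and 0 to 671, the last without anti-PD1 replicate 3. For the averaged vorinostat change, 2 became 0 with pseudocount 0.1 and the mean filter (388 to 865 unadjusted), 6 with no filter, 1 with median-of-ratios scaling, the replicate block and the neuron covariate, and 0 to 6. A fit of only the groups compared gives no averaged value.

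List medians with anti-PD1 became 1.15 (voom), 0.10 (neuron covariate) and 0.15 (dividing cell covariate) for the postsynaptic list. The postsynaptic list shares Grin1 and Camk2a with the neuron list. For transmembrane adaptors, -0.07 became 0.09 (mean filter), 0.04 (median-of-ratios), 0.07 (voom), 0.14 (neuron) and 0.12 (dividing cell), and for catenins and Wnt signalling 0.03 (median-of-ratios), 0.06 (voom), 0.06 (neuron), 0.01 (dividing cell) and -0.17 to -0.02 with a library left out. For paralogs, 0.48 became -0.05 (neuron) and 0.05 (dividing cell). The replicate block changed no call of the 3 genes.

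Within groups, Fam43b and Prr7 had r = 0.11 with median-of-ratios scaling. With a library left out, r ranged from -0.07 to 0.26 for Fam43b with T cells, -0.10 to 0.41 for Fam43b with MHC class I, -0.16 to 0.36 for Ccdc85b with T cells, -0.12 to 0.38 for Ccdc85b with MHC class I and -0.22 to 0.19 for Prr7 with neurons. None of 255 alternatives passed (smallest adjusted p = 0.115).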
